A study of Rattus norvegicus with 170 samples.

Results

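The genes examined were 9 that carry glucose sensing and the coupling of glucose to insulin release in the pancreatic β-cell, namely Slc2a2, G6pc2, Kcnj11, Abcc8, Cacna1d, Cacna1c, Ucn3, Trpm5 and Slc30a8. They were taken from the expression matrix by gene symbol. Of the 9 listed genes, 8 were in the matrix, 1 transcript each, among 24113 gene symbols in all, and G6pc2 was not analysed here. Single islet cells of rats were sequenced after the whole islets had been kept in culture for 48 h with the aminopyrazine compound GNF4877 or with its solvent. Both groups came from wild type male Sprague Dawley rats aged 8 weeks, and their medium held 10% FBS and 5.5 mM glucose. The DMSO group (0.1% DMSO, 86 cells) and the GNF4877 group (3 μM, 84 cells) each carry the port numbers of 1 microfluidic chip, and 1 plate was sequenced per lane. What belongs to the treatment, the chip or the lane therefore cannot be told apart. Cells are not assigned to an animal or a culture, so each treatment is 1 sample with no replicate. Values are RPM, in which every cell is brought to the same total of mapped reads, and which are not divided by transcript length, so levels were compared between cells and not between genes.

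In a β-cell, glucose enters through a facilitative transporter, is phosphorylated and metabolised, and the rise in ATP closes a potassium channel built from the pore subunit Kir6.2 and the sulphonylurea receptor SUR1. The membrane then depolarises, L-type calcium channels open, and the entering calcium drives the fusion of granules in which insulin is packed with zinc. α-cells share the potassium channel and the calcium channels but release glucagon, and rodent β-cells differ from them in the transporter they use.

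Cells with 1000 RPM or more of Ins1 were called Ins1-high (78 DMSO and 59 GNF4877 cells), and cells with 1000 RPM or more of Gcg and less of Ins1 were called α-cells (5 DMSO and 18 GNF4877 cells). The remaining 10 cells had neither. Markers of β-cells fitted the Ins1-high label except for Mafa. Mean Ins2 was 20047 RPM in DMSO and 10319.9 RPM in GNF4877 Ins1-high cells, Pdx1 was read in 85.9% and 67.8% of them, and Mafa averaged 0.129 and 0 RPM. Iapp averaged 1578 and 4539 RPM, Prlr 48.9 and 54.7 RPM and Nkx6-1 11.5 and 4.42 RPM. The means of Pdx1 were close at 35.3 and 31.6 RPM, while Prlr had medians of 17.3 and 3.02 RPM. All 6 α-cell markers examined averaged 1 RPM or more in the α-cells of both chips, led by Gc at 2358 RPM (DMSO) and 1958 RPM (GNF4877), while Nkx6-1 was at 0 in both. Of the same 6 markers, 5 averaged 1 RPM or more in DMSO Ins1-high cells too (Gc 803 RPM), and 1 in GNF4877 Ins1-high cells. In the 53 DMSO Ins1-high cells with a single hormone it was 1 of 6 as well. The 5 mesenchymal markers summed to a mean of 241 RPM in DMSO Ins1-high cells (101 RPM without the cell DMSO_46) and 0.318 RPM in GNF4877 Ins1-high cells. The 4 immune markers went the other way, 11.6 and 60.0 RPM, led by Cd74 (9.99 and 58.3 RPM). The part of either set in the treatment comparison was not tested. Of 6 β-cell markers, 4 averaged 1 RPM or more in DMSO α-cells (Iapp 186 RPM) and 3 in GNF4877 α-cells. The part of reads from other cells in these values was not tested. Of the Ins1-high cells, 25 in DMSO and 4 in GNF4877 carried another islet hormone (Gcg, Sst or Ppy) at 1000 RPM or more as well. Of the α-cells, DMSO_33 (1672 RPM of Sst), GNF4877_59 (15427.5 RPM of Ppy) and GNF4877_8 (5480.5 RPM of Ppy) did so too.

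Mapped reads per cell, taken from the size of 1 read in each cell's values, had a median of 1235720 (range 241604 to 2499140) in DMSO Ins1-high cells and 1424570 (range 324416 to 2171570) in GNF4877 Ins1-high cells. A median of 8938 genes per cell was read in the former and 7031 in the latter, and at an equal 100000 reads per cell the medians were 6599.5 and 4925.5. In 7 cells, 4 of them Ins1-high, the listed transcripts summed to between 26506.5 and 189295 RPM, against 764052 RPM or more in every other cell. Leaving these cells out moved none of the ratios of the 8 genes in the 4 comparisons below by 1.5-fold or more. Intervals given with shares of cells are exact 95% Clopper-Pearson intervals and cover counting error only, and PCR reads without molecular identifiers are not independent molecules.

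Slc2a2 encodes GLUT2, the transporter through which rodent β-cells take up glucose. Its level in DMSO Ins1-high cells ran from 1.09 to 8734 RPM (median 445), with the middle 50% of cells at 136 to 2392 RPM. In GNF4877 Ins1-high cells it ran from 0 to 13689 RPM (median 1274), with the middle 50% at 75.8 to 5384 RPM. The mean was 1595 RPM in DMSO and 3042 RPM in GNF4877, 1.91 times as high (log2 ratio 0.93). Here and below, times are ratios of the means themselves, and log2 ratios are taken after adding 1 RPM to each mean, which brings low values closer together. The ranges overlapped almost throughout, and the higher mean came with a wider spread, the lower quartile being lower and the upper quartile higher in GNF4877. Without the cell DMSO_58 the log2 ratio was 1.02, just past 2-fold.

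Slc2a2 also separated Ins1-high cells from α-cells. The 5 DMSO α-cells had 1.74, 2.35, 6.24, 16.7 and 29.6 RPM, and the 18 GNF4877 α-cells had 0 to 35.6 RPM (median 8.08). Reads were thus found in 17 of 18 GNF4877 α-cells, but at a few RPM, so a share of cells with a read does not separate the cell types for this gene. The mean in Ins1-high cells was 141 times that in α-cells in DMSO (log2 ratio of α over Ins1-high -7.02) and 296 times in GNF4877 (-8.08). The DMSO value was -7.69 without the cell DMSO_90. Of the Ins1-high cells, 66 of 78 in DMSO and 49 of 59 in GNF4877 lay above the highest α-cell of their own chip, so 12 and 10 Ins1-high cells had no more Slc2a2 than an α-cell.

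Abcc8 encodes SUR1, the regulatory subunit of the potassium channel and the receptor of sulphonylurea drugs. It ran from 0 to 1112 RPM (median 262) in DMSO and from 0 to 911 RPM (median 137) in GNF4877 Ins1-high cells. Its means of 303 and 236 RPM differed little (log2 ratio -0.36), but the mean of log2(RPM + 1) per cell was lower by more in GNF4877 (difference -1.55). The lower quartile showed where this arose, 135 RPM in DMSO and 8.80 RPM in GNF4877, with upper quartiles of 418 and 401 RPM.

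Kcnj11 encodes Kir6.2, the pore of the same channel, and lies next to Abcc8 in the rat GRCr8 annotation. In DMSO Ins1-high cells it ran from 0 to 498 RPM (median 60.7) and was read in 71 of 78 cells (91%, interval 82.4 to 96.3%). In GNF4877 Ins1-high cells it ran from 0 to 529 RPM (median 15.9) and was read in 42 of 59 cells (71.2%, interval 57.9 to 82.2%). The means were 94.9 and 63.2 RPM (log2 ratio -0.58), and the difference of mean log2(RPM + 1) was -1.87. The upper quartiles were 130.3 and 57.5 RPM. Both subunits therefore had more GNF4877 cells at or near 0 than DMSO cells, and the upper quartile was lower for Kcnj11 but close for Abcc8.

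The L-type calcium channel genes were read in fewer GNF4877 than DMSO cells, and their upper quartiles were lower too. Cacna1d, which encodes Cav1.3, was read in 69 of 78 cells (88.5%, interval 79.2 to 94.6%) in DMSO and 29 of 59 cells (49.2%, interval 35.9 to 62.5%) in GNF4877 Ins1-high cells. At equal depth the shares were 71.1% (54 of 76 cells) and 31% (18 of 58 cells). The cells ran from 0 to 265.5 RPM (median 34.3) in DMSO and from 0 to 459.6 RPM (median 0) in GNF4877, with means of 57.3 and 34.5 RPM (log2 ratio -0.72). The upper quartiles were 85.2 and 15 RPM. Most GNF4877 cells thus had no Cacna1d read or few, and a small number of cells carried the mean, the highest, GNF4877_44, alone giving 22.6% of the sum. Without it the log2 ratio was -1.05.

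Cacna1c, which encodes Cav1.2, was read in 50 of 78 cells (64.1%, interval 52.4 to 74.7%) in DMSO and 16 of 59 cells (27.1%, interval 16.4 to 40.3%) in GNF4877 Ins1-high cells. At equal depth the shares were 43.4% and 15.5%. It ran from 0 to 116 RPM (median 1.89) in DMSO and from 0 to 93.7 RPM (median 0) in GNF4877, with upper quartiles of 20.7 and 0.838 RPM. The mean was 15.9 RPM in DMSO and 4.37 RPM in GNF4877, 3.64 times as high in DMSO (log2 ratio -1.65 with 1 RPM added to each mean), the lowest ratio of the 8 genes. Without the cell GNF4877_96, which gave 36.4% of the GNF4877 sum, it was 5.62 times (log2 ratio -2.14). Fewer genes per cell were read on the GNF4877 chip, also at equal depth, and the part of this difference in the lower shares of the channel genes was not tested.

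Trpm5 encodes a calcium-activated monovalent cation channel that depolarises the membrane, and it had the highest ratio of the 8. In DMSO Ins1-high cells it ran from 0 to 332 RPM (median 8.63) and was read in 57 of 78 cells (73.1%, interval 61.8 to 82.5%). In GNF4877 Ins1-high cells it ran from 0 to 903 RPM (median 61.9) and was read in 51 of 59 cells (86.4%, interval 75 to 94%). The mean was 36 RPM in DMSO and 132 RPM in GNF4877, 3.67 times as high (log2 ratio 1.85), and the difference of mean log2(RPM + 1) was 1.65. Shares at equal depth were 57.9% and 70.7%.

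In α-cells Trpm5 was nearly absent. No read was found in the 5 DMSO α-cells (0 of 5 cells, upper limit 52.2%), and the mean of DMSO Ins1-high cells was at least 53.3-fold higher than the 0.675 RPM that 3 reads over all 5 cells would give. In GNF4877 α-cells the range was 0 to 7.72 RPM (median 0), 19 reads in all (Poisson interval 11.4 to 29.7), and the mean of Ins1-high cells was 192 times the α-cell mean. The cell GNF4877_27 gave 62.2% of the α-cell sum, and without it the ratio was 478. Of GNF4877 Ins1-high cells, 40 of 59 lay above the highest α-cell.

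Slc30a8 encodes ZnT8, the transporter that loads insulin granules with zinc. It was read in nearly every Ins1-high cell, and ran from 0 to 2617 RPM (median 385) in DMSO and from 0.625 to 4185 RPM (median 534) in GNF4877. The means of 465 and 820.2 RPM gave a ratio of 1.76 (log2 0.82), while the difference of mean log2(RPM + 1) was 0.16. The lower quartiles were close at 201 and 192 RPM and the upper quartiles were 643 and 1478 RPM, so the cells of high level accounted for the higher mean.

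Ucn3 encodes urocortin 3, a peptide released with insulin that acts on neighbouring δ-cells and is used as a mark of mature β-cells. It ran from 0 to 519 RPM (median 132) in DMSO and from 0 to 545 RPM (median 37.6) in GNF4877 Ins1-high cells. It was read in 73 of 78 cells (93.6%, interval 85.7 to 97.9%) and in 46 of 59 cells (78%, interval 65.3 to 87.7%), and at equal depth in 93.4% and 70.7%. The mean was 169 RPM in DMSO and 86.4 RPM in GNF4877, 1.96 times as high in DMSO (log2 ratio -0.96, and -1.10 without the cell GNF4877_63). Leaving out cells with more than 1 hormone left 53 DMSO and 55 GNF4877 cells, and the mean was then 170.3 and 84.6 RPM.

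**Figure D1:**
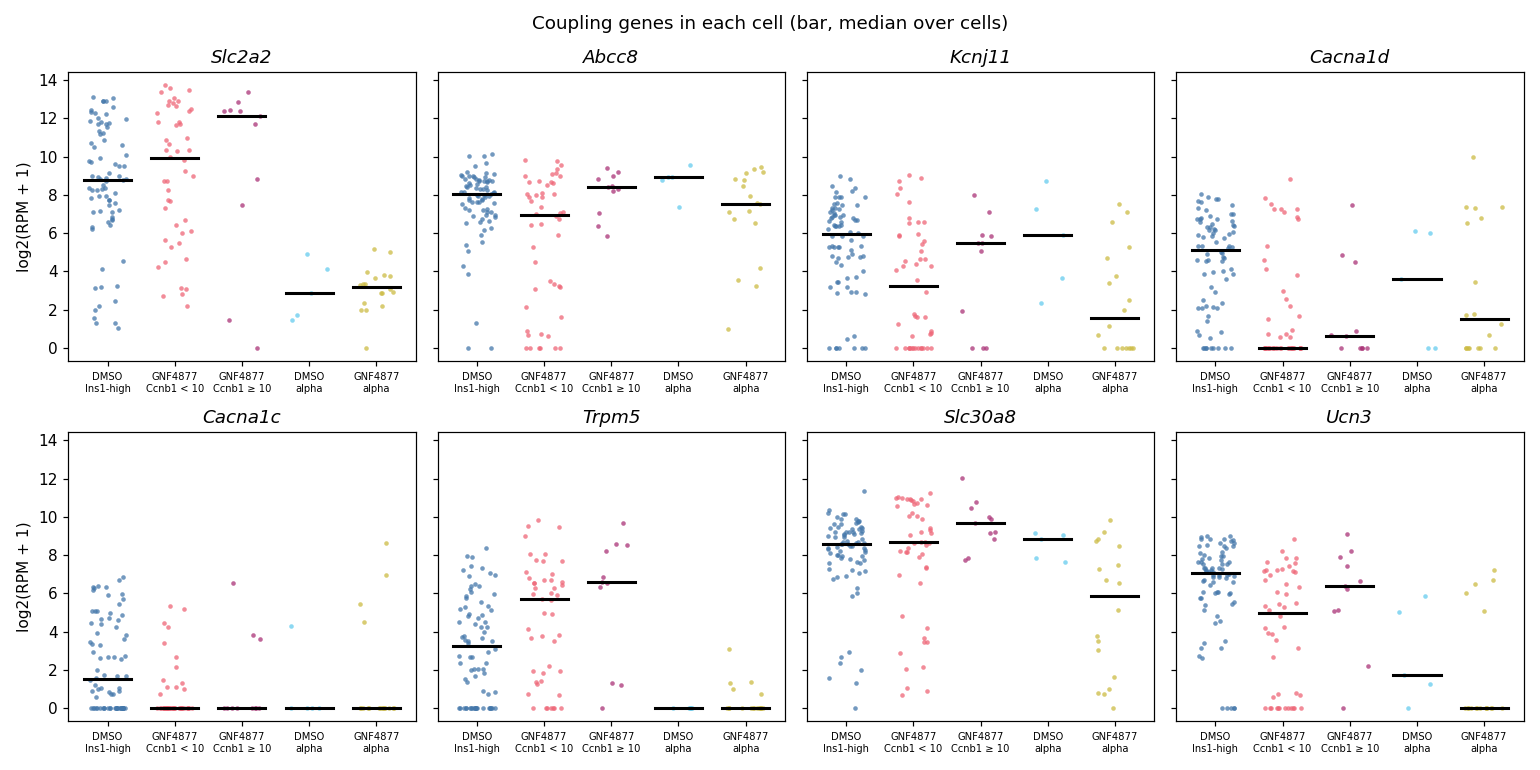
Level of the 8 genes in single cells as log2(RPM + 1), each point 1 cell and each bar the median over the cells of a group (78 DMSO Ins1-high, 48 GNF4877 Ins1-high with Ccnb1 below 10 RPM, 11 with 10 RPM or more, 5 DMSO α and 18 GNF4877 α-cells). Slc2a2 and Trpm5 lie low in α-cells, whereas for Abcc8 the ranges of α-cells and Ins1-high cells overlap. Many GNF4877 cells lie at 0 for Cacna1d and Cacna1c.

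Taking the 8 genes as a list, 1 was 2-fold or more higher in GNF4877 than in DMSO Ins1-high cells (Trpm5) and 1 was 2-fold or more lower (Cacna1c). Of 13368 genes with a mean of 1 RPM or more over both groups, 10.1% were that much higher and 17.2% that much lower, so these counts were near those of all genes. The median log2 ratio of the 8 was -0.47, against -0.09 over all genes tested. Slc2a2, Trpm5 and Slc30a8 were above 0 and the other 5 below it. On the mean of log2(RPM + 1) per cell, 5 of the 8 were lower by 1 or more (Kcnj11, Abcc8, Cacna1d, Cacna1c and Ucn3), where 24.6% of all genes were, and 1 higher (Trpm5), where 1.8% were. The median difference over all genes was -0.49. With no replicate of either treatment, none of these differences could be set against a spread between samples.

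Ccnb1 encodes cyclin B1, which accumulates as cells approach mitosis, and 11 GNF4877 Ins1-high cells had 10 RPM or more of it (called Ccnb1-bearing). Abcc8 was read in all 11, from 56.4 to 665 RPM (median 335), and in the 48 cells with less Ccnb1 it ran from 0 to 911 RPM (median 124). Its means were 343 and 212 RPM (log2 ratio 0.69, difference of mean log2(RPM + 1) 2.52). No Ccnb1-bearing cell lay in the low range of Abcc8 in which the lowest 25% of the other cells lay (lower quartile 6.43 RPM).

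Slc30a8 followed the same order, from 216 to 4185 RPM (median 810.5) in the 11 cells and from 0.625 to 2448 RPM (median 406) in the 48 (means 1106 and 755 RPM, log2 ratio 0.55). Slc2a2 ran from 0 to 10681 RPM (median 4474) in the 11 and from 3.67 to 13689 RPM (median 959) in the 48, with means of 3886 and 2848 RPM (log2 ratio 0.45). Ucn3 had means of 144 and 73.3 RPM (0.96) and medians of 81.5 and 31.2 RPM. Ccnb1-bearing cells thus had medians of all 4 genes above those of the other GNF4877 Ins1-high cells, with ranges that overlapped. For Ucn3 and Slc30a8 the means leaned on 1 cell, GNF4877_63, without which the log2 ratios were 0.49 and 0.08. The log2 ratio of Slc2a2 was 0.17 without the cell GNF4877_96. Without the cell GNF4877_95 the ratio of Ucn3 was 1.13.

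Trpm5 had means of 206 and 115 RPM in these 2 sets of cells (log2 ratio 0.83, and 0.31 without the cell GNF4877_17 or 1.05 without GNF4877_32). Kcnj11 had means of 57.7 and 64.5 RPM (-0.16, and -0.76 without the cell GNF4877_16 or 0.08 without GNF4877_45). Its medians were in the opposite order, 43.4 and 8.78 RPM, and the difference of mean log2(RPM + 1) was 0.76. Cacna1d was read in 6 of 11 and 23 of 48 cells (log2 ratio -0.85, and -2.64 without the cell GNF4877_30). Cacna1c was read in 3 of 11 and 13 of 48 cells, and its log2 ratio of 1.58 rested on the cell GNF4877_96 at 93.7 RPM, without which it was -0.20. The log2 ratio of Cacna1d thus stayed below 0 whichever cell was left out (-2.64 to -0.47), while the signs for Kcnj11 and Cacna1c each rested on 1 cell. The medians of Cacna1d were in the opposite order, 0.573 and 0 RPM, and the difference of mean log2(RPM + 1) was -0.34. GNF4877_30 alone gave 76.9% of the Cacna1d sum over the 11 cells.

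By the ratio of means, Cacna1c was the only gene of the 8 that was 2-fold or more higher in the Ccnb1-bearing cells. None (0) were 2-fold or more lower, where 17% and 24% of 12540 genes were higher and lower. The median log2 ratio was 0.62 for the 8 genes and -0.09 for all genes, and 6 of the 8 were above 0. On the mean of log2(RPM + 1), 4 were higher by 1 or more (Abcc8, Slc30a8, Ucn3 and Trpm5), where 13.8% of all genes were. On that measure 0 were lower, where 6.46% were, and Cacna1c was at 0.56. The 11 cells had a median of 7527 genes read and the 48 had 6924.5, and mean Ins1 was 46807 and 24942 RPM. The part of both in the ratios was not tested. In DMSO 1 Ins1-high cell had 10 RPM or more of Ccnb1, with 105 RPM of Slc2a2 and 5.29 RPM of Ucn3. That cell also carried 11030.3 RPM over the 5 mesenchymal markers, led by Col1a1 at 3470.2 RPM, and 529 RPM of Ins2.

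The potassium channel genes had α-cells and Ins1-high cells in overlapping ranges. The 5 DMSO α-cells had 165, 445, 481, 497 and 755 RPM of Abcc8, all within the range of the DMSO Ins1-high cells, and the α-cells of GNF4877 ran from 1.01 to 714 RPM (median 186). The log2 ratio of α-cells over Ins1-high cells was 0.63 in DMSO and 0.20 in GNF4877. The differences of mean log2(RPM + 1) were larger, 1.13 and 0.95. For Kcnj11 the 5 DMSO α-cells had 4.16, 11.8, 58.4, 151.5 and 430.3 RPM, and the log2 ratio of 0.46 was -0.74 without the cell DMSO_67. The GNF4877 α-cells ran from 0 to 184 RPM (median 2.06). Their log2 ratio was -1.14, and -1.68 without the cell GNF4877_59 or -0.94 without GNF4877_45. Levels of both genes in α-cells thus lay within the range of Ins1-high cells.

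Slc30a8 was shared as well in DMSO, where the 5 α-cells had 201, 234, 454, 528 and 578 RPM and the log2 ratio was -0.22. In GNF4877 the α-cells ran from 0 to 915 RPM (median 63.1), and their mean of 185 RPM gave a log2 ratio of -2.14 to Ins1-high cells. Ucn3 was lower in α-cells on both chips. The DMSO α-cells had 0, 1.39, 2.35, 31.4 and 58.2 RPM (log2 ratio -3.11, and -4.12 without the cell DMSO_89), and in GNF4877 it was read in 5 of 18 cells (27.8%, interval 9.69 to 53.5%), with a log2 ratio of -1.78. Of the DMSO Ins1-high cells 58 of 78 lay above the highest α-cell, and of the GNF4877 Ins1-high cells 14 of 59 did.

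Cacna1d was read in 3 of the 5 DMSO α-cells and in 11 of 18 GNF4877 α-cells, from 0 to 1011 RPM (median 1.86) in the latter. Its log2 ratio was -0.99 in DMSO and 1.44 in GNF4877, and the latter was 0.26 without the cell GNF4877_59, which also carried 15427.5 RPM of Ppy. The DMSO ratio was -1.59 without the cell DMSO_67. Cacna1c was read in 1 of 5 and 4 of 18 α-cells, with log2 ratios of -1.83 and 2.64, the latter 1.16 without the cell GNF4877_69. The single DMSO α-cell with Cacna1c reads was DMSO_67. Without it the α-cells were at 0, and the value of -4.08 was set by the 1 RPM added to each mean and is not a measured ratio. In most α-cells Cacna1c was thus at 0.

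In GNF4877, 5 of the 8 genes were 2-fold or more lower in α-cells than in Ins1-high cells, where 33.6% of 12822 genes were, and 2 were 2-fold or more higher (Cacna1d and Cacna1c), where 13.7% were. In DMSO, 4 were 2-fold or more lower, where 45% of 12910 genes were, and 0 higher, where 11.6% were. The median log2 ratio of the 8 was -1.46 in GNF4877 and -1.41 in DMSO, also with Trpm5 at the bound given above, against -0.42 and -0.80 over all genes. Glucagon reads take up much of an α-cell, with medians of 409098 RPM in DMSO and 271660 RPM in GNF4877. Of all genes past 2-fold, 28.9% were higher in α-cells in GNF4877 and 20.4% in DMSO, and with values scaled to the reads outside the hormone genes these shares were 39.3% and 31.8%. α-cells had fewer genes read than Ins1-high cells of the same chip (medians 7026 in DMSO and 5864.5 in GNF4877), and the part of this in the ratios was not tested. The 5 mesenchymal markers summed to 128 RPM in GNF4877 and 1.18 RPM in DMSO α-cells, and their part was not tested either. The highest of them in GNF4877 α-cells, Col3a1 (76.8 RPM), was read in 5.56% of these cells. Both comparisons use the Ins1-high cells of the treatment comparison and share them with it.

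**Figure D2:**
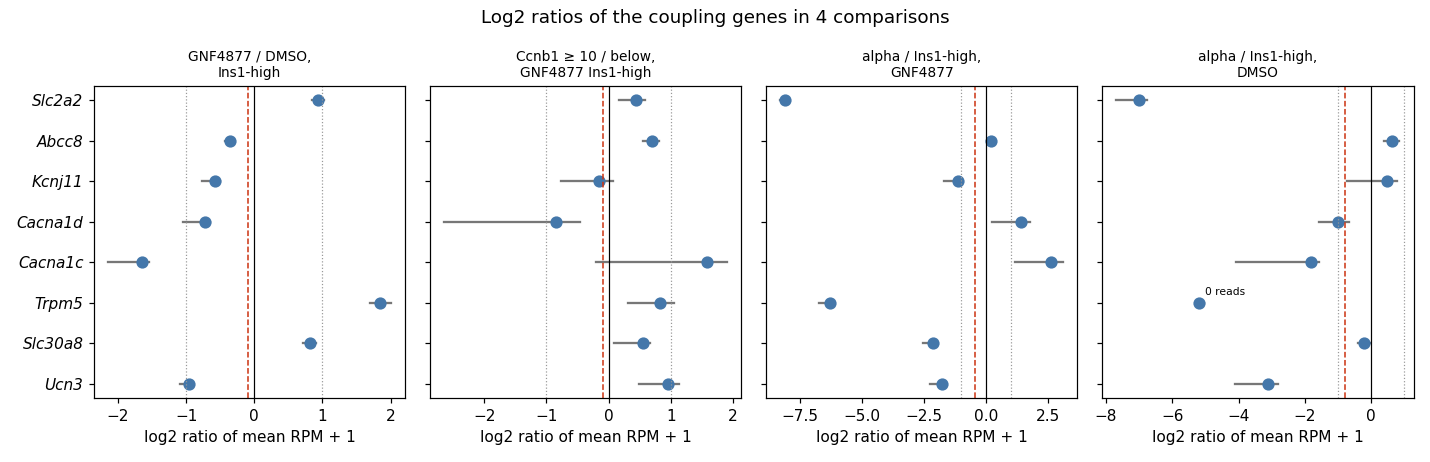
Log2 ratio of mean RPM + 1 for the 8 genes in 4 comparisons (points), with grey lines spanning the values after leaving out each cell in turn, dotted lines at 2-fold and a dashed line at the median of all genes tested. Slc2a2 and Trpm5 lie far to the left in both comparisons of α-cells, and the ratio of Cacna1c for Ccnb1 moves from 1.58 to -0.20 when 1 cell is left out.

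The genes differed in how they varied among Ins1-high cells. In DMSO the coefficient of variation was 0.773 for Abcc8, 0.860 for Slc30a8 and 0.863 for Ucn3, and 1.11 for Kcnj11, 1.14 for Cacna1d, 1.44 for Slc2a2, 1.70 for Cacna1c and 1.76 for Trpm5. In GNF4877 it was 1.03 for Abcc8 and 1.03 for Slc30a8 and reached 3.25 for Cacna1c. By this measure Abcc8, Slc30a8 and Ucn3 were the most even of the 8 in DMSO, and in GNF4877 Cacna1c and Cacna1d the most uneven. The standard deviation of log2(RPM + 1) was also lowest for those genes in DMSO (1.89, 2.22 and 2.29). In GNF4877 it gave another order, lowest for Cacna1c (1.64) and Cacna1d (2.85) and highest for Slc2a2 (3.73). Cacna1c was read in 16 of 59 GNF4877 cells, and the part of low levels in these orders was not tested.

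Slc2a2 varied from cell to cell with Slc30a8, Trpm5, Ucn3 and Kcnj11. Among the 53 DMSO Ins1-high cells with a single hormone, Spearman's rho of Slc2a2 was 0.61 with Slc30a8, 0.59 with Trpm5, 0.58 with Ucn3 and 0.42 with Kcnj11. Among the 55 such GNF4877 cells the values were 0.71, 0.56, 0.56 and 0.54. Ucn3 and Trpm5 followed each other less in DMSO (0.24) than in GNF4877 (0.43). Kcnj11 and Abcc8, whose products form 1 channel, had rho 0.18 in DMSO, 0.06 there without the 3 cells of low listed total, and 0.50 in GNF4877. Over all 28 pairs the median rho was 0.15 in DMSO (range 0.03 to 0.61) and 0.25 in GNF4877 (-0.04 to 0.71). Without the cells of low listed total the median in DMSO was 0.10 (range -0.03 to 0.57). Cells of a chip share their library preparation and differ in genes read, and Slc2a2 had rho 0.28 (DMSO) and 0.45 (GNF4877) with the number of genes read in the cell, the former 0.14 without the cells of low listed total. With Ins1 its rho was 0.65 and 0.48, and the part of either in the pairs above was not tested.

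The genes most like each of the 8 over the same 53 DMSO cells were taken from the 8120 genes read in 50% or more of them. The highest of 8120 values over 53 cells are large partly because they were picked as the highest, and none was tested. Those of Slc2a2 were Iapp (0.82), Vkorc1 (0.72) and Gnas (0.71), with 0.65, 0.24 and 0.60 in GNF4877. Iapp, the amylin gene, was thus the gene most like Slc2a2 in DMSO. Those of Ucn3 were Crispld1 (0.68), Iapp (0.62) and Pnma2 (0.60), with 0.49, 0.45 and 0.25 in GNF4877. Those of Slc30a8 were LOC679126 (0.74), Anxa10 (0.65) and Palld (0.64), with 0.45, 0.34 and 0.42 in GNF4877. Those of Trpm5 were LOC100911216 (0.64), Slc38a5 (0.62) and RGD1311744 (0.60), with 0.18, 0.44 and 0.31 in GNF4877. Of these 3, Slc38a5, an amino acid transporter gene, had the highest rho with Trpm5 in GNF4877. Those of Kcnj11 were LOC100911993 (0.58), Ndufs4 (0.58) and Tubb4a (0.56), those of Abcc8 were Cox7a2 (0.56), Amz2 (0.56) and Itfg3 (0.56), those of Cacna1d were Pmm1 (0.54), Med13 (0.51) and Gltscr2 (0.49) and those of Cacna1c were Psmb5 (0.68), Parp3 (0.59) and Syne1 (0.58). Without the 3 cells of low listed total the gene most like Abcc8 was Lmo4 (0.52), and for the other 7 it stayed the same. For Kcnj11, Abcc8, Cacna1d and Cacna1c the values in GNF4877 lay between -0.15 and 0.38. In the GNF4877 cells themselves the gene most like both Slc2a2 and Slc30a8 was Hadh (0.72 and 0.73), which encodes a mitochondrial dehydrogenase of fatty acid oxidation.

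Other genes of the pathway were followed in a list of 73, from glycolysis to zinc transport. Between the treatments 57 of the 73 reached a mean of 1 RPM, of which 5 were 2-fold or more higher in GNF4877 and 11 2-fold or more lower, with a median log2 ratio of -0.39 (-0.09 over all genes). Over all genes 10.1% were higher and 17.2% lower, so both counts were near the background. By role, the median was 1.01 for the genes of glucose uptake and phosphorylation (2 higher and 0 lower of 3) and 0.51 for glycolysis and mitochondrial coupling (3 higher and 2 lower of 16). It was -0.97 for calcium channel subunits (0 higher and 2 lower of 7) and -0.61 for calcium stores, pumps and exchangers (0 higher and 4 lower of 10). For the other roles it was -0.59 for potassium channels (0 higher and 1 lower of 8), -0.25 for sodium channels (0 higher and 1 lower of 3), -0.36 for TRP channels (0 higher and 0 lower of 2) and -0.15 for zinc transport and buffering (0 higher and 1 lower of 8).

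Among listed genes with a mean of 10 RPM or more over both groups, the highest ratios in GNF4877 were those of Gpd2, Pfkp and Slc2a1. Gpd2, the mitochondrial enzyme of the glycerol phosphate shuttle, had means of 19.4 RPM in DMSO and 60.9 RPM in GNF4877 (log2 ratio 1.60) with medians of 0 in both. Pfkp, a phosphofructokinase, went with a higher median too, 49.4 and 202 RPM (log2 ratio of means 1.44). Slc2a1, which encodes the transporter GLUT1, had means of 61.9 and 156 RPM (1.32). The lowest among genes with that mean were Pc, Kcnk3 and Slc30a5. Of listed genes with a lower mean, several had lower ratios still, such as Ryr2 (-2.73) and Itpr1 (-2.36). Pc, the pyruvate carboxylase that feeds the citrate cycle, was read in 74.4% of DMSO and 32.2% of GNF4877 Ins1-high cells (means 82.7 and 16.7 RPM, log2 ratio -2.24). Kcnk3, the gene of the potassium leak channel TASK1, had a log2 ratio of -1.35 and the zinc transporter gene Slc30a5 -1.31.

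Between GNF4877 Ins1-high cells with 10 RPM or more of Ccnb1 and those with less, 8 of 55 listed genes were 2-fold or more higher and 16 lower (median log2 ratio -0.41, all genes -0.09). Over all genes 17% were higher and 24% lower. Among listed genes with a mean of 10 RPM or more, Got1 (2.94), Cacnb3 (2.41) and Pfkm (2.01) were highest. Lowest among them were Gpd2 (-2.75), Itpr3 (-2.34) and Stim1 (-2.19). Of these 6 genes only Itpr3, an inositol trisphosphate receptor gene, had a median above 0 in either set (8.93 RPM in the 48 cells).

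In α-cells against Ins1-high cells, 12 of 56 listed genes were 2-fold or more higher and 26 lower in GNF4877, and 9 and 30 of 57 in DMSO, with medians of -0.86 and -1.28. Over all genes 13.7% were higher and 33.6% lower in GNF4877 (median -0.42), and 11.6% and 45% in DMSO (median -0.80). The lowest and highest ratios named next are those among listed genes with a mean of 10 RPM or more. Stim1, the calcium sensor of the endoplasmic reticulum, was among the 3 lowest on both chips (-4.17 in GNF4877 and -4.17 in DMSO). In GNF4877 the others were Gpd2 (-4.68) and the sodium-calcium exchanger gene Slc8a1 (-2.60), and Itpr1 (3.59), Ryr2 (3.21) and Scn9a (2.92) were highest. In DMSO the others were Slc2a1 (-3.95) and Slc30a5, which had no read in the 5 α-cells and was at least 65.8-fold lower there, and Itpr2 (3.55) and Trpm3 (1.62) were among the highest.

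The 10 cells that were neither Ins1-high nor α-cells were examined too. Slc2a2 was read in all 10, at no more than 26.8 RPM (in GNF4877_5, a cell of low listed total), as in α-cells. Cacna1d and Cacna1c were at 0 in the 7 such GNF4877 cells and Ucn3 at 0 in the 3 DMSO cells. Of the 10, 4 had 1000 RPM or more of Ppy, namely DMSO_29, GNF4877_33, GNF4877_62 and GNF4877_73. In this order Abcc8 was 199.9, 121, 1.58 and 1027 RPM, and Slc30a8 was 34, 562, 487 and 8.08 RPM. Both genes thus ranged widely among the few cells with pancreatic polypeptide.

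Promoter sequences of RefSeq (GRCr8) were found for 5 of the 8 genes. The 250 bases before the annotated start are shown for Slc2a2 and Trpm5, which were higher in GNF4877, and for Ucn3, which was lower. For each of the 3 the start used lies inside the annotated span of the gene. Capitals mark TAAT, the core bound by homeodomain proteins, and the E-box CANNTG, each searched on both strands.
Slc2a2 (chr2:113540120-113540369, plus strand): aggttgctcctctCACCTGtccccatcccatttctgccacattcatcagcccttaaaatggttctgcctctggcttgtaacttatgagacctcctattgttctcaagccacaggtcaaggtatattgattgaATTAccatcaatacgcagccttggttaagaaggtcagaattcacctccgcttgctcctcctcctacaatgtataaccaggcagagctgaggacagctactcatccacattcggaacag
Trpm5 (chr1:207707089-207707338, minus strand): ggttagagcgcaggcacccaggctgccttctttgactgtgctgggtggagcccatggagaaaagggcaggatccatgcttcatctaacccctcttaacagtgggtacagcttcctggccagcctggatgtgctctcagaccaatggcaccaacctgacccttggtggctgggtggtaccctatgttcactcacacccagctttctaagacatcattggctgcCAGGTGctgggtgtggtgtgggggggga
Ucn3 (chr17:71219406-71219655, plus strand): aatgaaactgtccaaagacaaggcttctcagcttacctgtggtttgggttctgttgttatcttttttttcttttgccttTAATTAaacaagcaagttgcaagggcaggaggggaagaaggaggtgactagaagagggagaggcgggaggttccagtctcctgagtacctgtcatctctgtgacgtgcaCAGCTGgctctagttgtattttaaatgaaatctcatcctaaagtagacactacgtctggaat
TAAT was in the windows of 2 of the 5 genes (Slc2a2 and Ucn3), and of 33469 promoters of the same length 57% held it. CANNTG was in 4 of the 5, and in 65.5% of all. GGAAA, the core bound by NFAT proteins, was in 0 of the 5 on either strand, and in 56.9% of all. These matches describe the letters of the windows and no binding was measured.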

How the data were processed

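Islets were dispersed after culture, single cells were captured on microfluidic chips, and cDNA was amplified and sequenced with single 50 bp reads. The submitters' processing notes name CASAVA 1.8.2, BWA 0.5.9 and SAMtools 0.1.19. The authors aligned reads to a transcriptome, which their methods call mouse although the rows carry rat RefSeq transcripts, and deposited RPM for 27586 transcripts in 170 cells. The genome build is not given in the sources used here. Values of 0.01 (69.7% of all) stand where no read was counted and were set to 0, and rows of a symbol were summed. Reads per cell were recovered from the step between low values: of values of up to 20 steps, 100% lay within 0.1 of a whole number.

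Levels were compared as log2((mean RPM + 1) / (mean RPM + 1)), and 2-fold was the size at which a gene was counted, over genes whose mean of the 2 groups was 1 RPM or more. Since each treatment is 1 sample and cells are not replicates, no test was run and no p-value is given. No doublet caller was run, and Ins1-high cells, but not α-cells, with 1000 RPM or more of another hormone were left out as an alternative. Equal depth means 100000 reads drawn from each cell, and 2 DMSO and 1 GNF4877 Ins1-high cells with fewer listed reads were left out. Named genes were the 8 listed genes analysed in every comparison, the 3 genes most like each of the 8, the hormone genes and Ccnb1. Genes from the 3 highest and 3 lowest of the 73 in each comparison were named too, among those with a mean of 10 RPM or more. Cell type markers were named from the marker lists, and Lmo4 as the gene most like Abcc8 without the cells of low listed total. Hadh and the single cells named were picked with their values in view. The members and lists were chosen with earlier results of these data known. The other settings tried were the thresholds for Ins1, Ccnb1 and Gcg, cells with another hormone, the pseudocount, the mean of log2 values, the scaling, thinning, the highest row of a gene, the background minimum and leaving out single cells; leaving out cells of low listed total or with Ccnb1 was added after seeing the data. The calculation was run on simulated reads with planted changes and no spread between cells beyond counting error. That run checks the arithmetic only and does not cover the spread among the cells measured here. The scripts ran on Python 3.11.15 with pandas 2.3.3, numpy 2.4.6, matplotlib 3.10.9 and scipy 1.17.1.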

Additional observations from a re-analysis of the deposited data

Results flagged for a closer look

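By the ratio of means, Cacna1c was higher in α-cells than in Ins1-high cells in GNF4877 (log2 ratio 2.64) and lower in DMSO (-1.83), 2 ratios that differ by 4.47. The difference was not tested, since each treatment is 1 sample. Cacna1c was read in 4 of 18 GNF4877 α-cells and 1 of 5 DMSO α-cells, and the cell GNF4877_69 gave 67.9% of the summed RPM of the GNF4877 α-cells. Among Ins1-high cells it was read in 16 of 59 in GNF4877 and 50 of 78 in DMSO, with means of 4.37 and 15.9 RPM. The differences of mean log2(RPM + 1) of α-cells to Ins1-high cells were 0.60 in GNF4877 and -1.41 in DMSO.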

How the results depend on the processing

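No paired analysis was possible because DMSO and GNF4877 are 1 sample each and cell numbers only name ports. Of 432 alternative log2 ratios of single genes, 389 stayed within 1.5-fold, 42 moved further and 1 past 2-fold changed sign, Cacna1c by Ccnb1 without GNF4877_96 (-0.20, range to 1.91). Of the 239 whose main value was under 2-fold, 5 changed sign (Kcnj11 by Ccnb1, and Kcnj11 and Slc30a8 in DMSO α-cells). Between the treatments, 2 genes in place of 1 were 2-fold or more lower with Ins1 of 10000 RPM, without cells of another hormone and without Ccnb1-bearing cells. The same count came with the hormone genes out of the scaling and at equal depth. In these settings 17.3% to 21.2% of all genes were that much lower. With a pseudocount of 10 RPM 0 were lower (4.38% of all genes), and on mean log2 values 5 were (24.6%, median of the 8 -1.50). Without cells of another hormone 2 were higher (11.5% of all genes). Leaving out single cells gave 1 to 2 lower and 1 to 2 higher. By Ccnb1, the number higher was 0 with a pseudocount of 10 RPM (9.22% of all genes), 3 with any Ccnb1 read (17.6%) and 4 on mean log2 values (13.8%). It was 0 to 3 without single cells, and 0 to 1 were lower. For α-cells, single cells left out gave 1 to 2 higher in GNF4877, where mean log2 values gave 1 (3.39% of all genes). In GNF4877 4 to 5 were lower over all settings, and single cells left out aside, 15.9% to 36.3% of all genes were. In DMSO the median without single cells ranged from -2.21 to -1.12, and was -0.86 with a pseudocount of 10 RPM and -0.88 without the hormone genes. There 3 to 5 were lower over all settings, and single cells left out aside, 22.6% to 48.9% of all genes were. On mean log2 values 1 was higher (8.78% of all genes), and without the hormone genes 2 were (17.6%). The cause was not tested. Scaling without the hormone genes moved the median of all genes from -0.09 to -0.21 between treatments, from -0.42 to -0.11 for α-cells in GNF4877 and from -0.80 to -0.41 in DMSO. On mean log2 values, 6.82% of genes past 2-fold between the treatments were higher in GNF4877, against 36.9% on means. Of 112 alternative shares of cells with a read, 73 lay within the interval of the value reported, and the other 39 came from thinning or a minimum of 10 RPM.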

Other observations

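The 25 DMSO Ins1-high cells with another hormone had medians of 551 RPM of Slc30a8 and 319 RPM of Abcc8, and the 53 with a single hormone had 332 and 224 RPM. For Trpm5 the order was the other way, 2.55 and 10.3 RPM, and Slc2a2 had 275 and 455 RPM. In the cell GNF4877_31, which had 40717 RPM of Ins1, 37011 RPM of Gcg and 425 RPM of Ccnb1, Slc2a2 was at 1.72 RPM, within the range of α-cells, while Trpm5 was at 94.5 RPM and Ucn3 at 294 RPM, both above every GNF4877 α-cell. The cell GNF4877_78 had 184281 RPM of Ins1 and 392 RPM of Ccnb1 with no read of Slc2a2, Kcnj11 or Ucn3 and 461 RPM of Abcc8. These cells were chosen after their values were seen.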
